A study of Homo sapiens with 12 samples.

Results

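The comparison described here is that of lactate-treated with untreated cells in the libraries labelled SW480. They were chosen by their label alone and number 6 of the 12 RNA-seq libraries of the series, which also holds 6 libraries of the line DLD1. SW480 is an established human cell line from a colorectal adenocarcinoma. The control group had no lactate and the treated group had lactate, with 3 libraries in each, and no other agent or genetic change is named in the labels. The dose of lactate, its salt or acid form and the time of treatment are absent from the labels used here. The series' design text calls the libraries of a group biological replicates, but nothing says that they came from separate cultures, so the p-values measure the spread between these libraries, which may be in part technical.

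Lactate is the end product of glycolysis. Cells export and import it with protons through monocarboxylate transporters, of which SLC16A1 (MCT1) and SLC16A3 (MCT4) are the best known, and lactate dehydrogenase converts it to pyruvate and back, with the subunits LDHA and LDHB. Besides serving as fuel it binds the receptor HCAR1, it can be attached to histones, and it has been linked to the hypoxia-inducible factors, which prolyl hydroxylases mark for degradation in the presence of oxygen and 2-oxoglutarate. In colorectal tumours lactate is abundant around hypoxic cells.

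The labelled line was checked against markers of epithelial and other cells, and several epithelial markers were near zero. Levels are given as CPM, the counts of a gene scaled to a library total of 1000000, and each range covers the 6 libraries labelled SW480 and then the 6 labelled DLD1. EPCAM, the epithelial adhesion molecule, stood at 0.356 to 1.14 CPM (5 to 17 counts) in SW480 and at 656 to 716 CPM in DLD1. CDH1, which encodes E-cadherin, stood at 1.19 to 1.54 against 637 to 911 CPM. The intestinal transcription factor CDX2 stood at 0 to 0.289 against 94.8 to 183 CPM, and the stem cell receptor LGR5 at 0 to 0.257 against 30.0 to 48.8 CPM. KRT20 had no counts in SW480 and 0.666 to 0.893 CPM in DLD1. The simple epithelial keratins were present, with KRT8 at 826 to 1410 CPM and KRT18 at 433 to 795 CPM in SW480. Some markers of mesenchymal cells were high, with VIM at 1431 to 1714 against 0.603 to 2.76 CPM and COL3A1 at 123 to 154 against 1.88 to 3.42 CPM. DCN, which encodes decorin, stood at 57.0 to 87.6 against 0 to 0.208 CPM. COL1A1 (19.1 to 49.2 against 1.74 to 2.68 CPM) and LUM (3.51 to 4.70 against 0.132 to 0.242 CPM) were lower but above DLD1. COL1A2 (0.561 to 1.29 against 0.521 to 0.848 CPM) and PDGFRB (2.60 to 3.49 against 2.41 to 6.96 CPM) were low in both lines. Of the leukocyte markers PTPRC had 0 to 5 counts per library, CD3E 0 to 1 and MS4A1 none, while CD68, a lysosomal protein of macrophages that other cells also make, stood at 30.8 to 104 CPM. Endothelial CDH5 had no counts and erythroid HBB 0 to 5. Whether the libraries come from the line of their label was not tested, so they are called the libraries labelled SW480 in what follows.

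**Figure D1:**
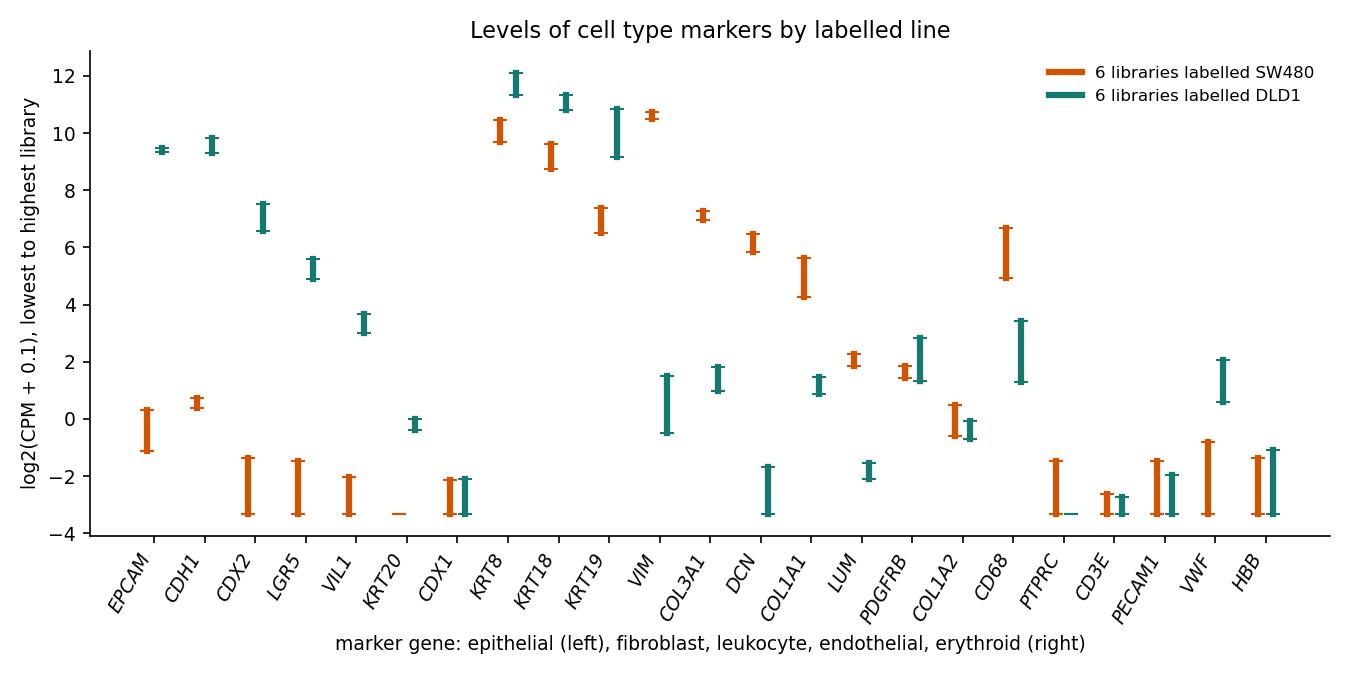
Levels of cell type markers in the 6 libraries labelled SW480 (orange) and the 6 labelled DLD1 (green), as log2(CPM + 0.1), each bar running from the lowest to the highest library. EPCAM, CDH1, CDX2 and LGR5 lie near the bottom in SW480 and high in DLD1, while VIM, COL3A1 and DCN show the reverse.

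After lactate, 27 of 31 tested hypoxia targets and 16 of 24 immediate early genes rose, where 16% of all genes tested rose. The largest rise was that of HSPA6, an HSP70 chaperone that is silent in most unstressed cells. The hypoxia-responsive genes NDRG1 and ANKRD37, the cytokine genes IL24, CSF3 and IL1B, and CYP1A1, the classic target of the aryl hydrocarbon receptor, each rose more than 4-fold. Of 50 tested genes of the G2 phase and mitosis, 47 fell and 0 rose, where 14.2% of all genes tested fell, and of 42 genes of ribosome biogenesis, 32 fell. Of 13 proteins encoded in mitochondrial DNA, the transcripts of 9 fell. In such bulk samples fewer cells of a type and less RNA per cell cannot be told apart.

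A gene was called when the adjusted p of edgeR's quasi-likelihood test was under 0.05. Of 15826 genes tested, 4781 were called, which is 30.2%, with 2532 that rose (16%) and 2249 that fell (14.2%). Called changes of at least 2-fold were fewer, with 422 genes up (2.67%) and 214 down (1.35%). The 3 lactate libraries lay wholly above or wholly below the 3 controls for 6925 genes (43.8%). The median log2 fold change over all genes tested was -0.000956, with quartiles at -0.23 and 0.24, and list medians given below stand against it. List counts of this fit given below likewise stand against the 16% of all genes tested that rose and the 14.2% that fell. List counts from other fits do not, because those fits called other numbers of genes in all. Library totals ran from 12302311 to 19354661 counts, and transcripts of the 13 mitochondrially encoded proteins took 4.77% to 5.20% of counts in controls and 3.49% to 3.78% after lactate. Without control 1 the calls numbered 2821 (1577 rose, 1244 fell) and without lactate 2 they numbered 3169 (1743 rose, 1426 fell). With the 12 libraries of both lines in 1 fit they numbered 2181 (1201 rose, 980 fell). Of genes named below, PFKFB4, PC, HDAC2, BTC, MT2A, CYP1B1, BBC3, RPL41, SRM, ULK1, TGFB1, MPC1, TFAM, TAF1D, HSP90AA1, ERN1, SLC7A11, TK1, SQSTM1, AKT1, RORA and CRY1 lost their call in that fit. The lists and their members were chosen with earlier results of these data known, so a list's count describes it and is no independent evidence.

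**Figure D2:**
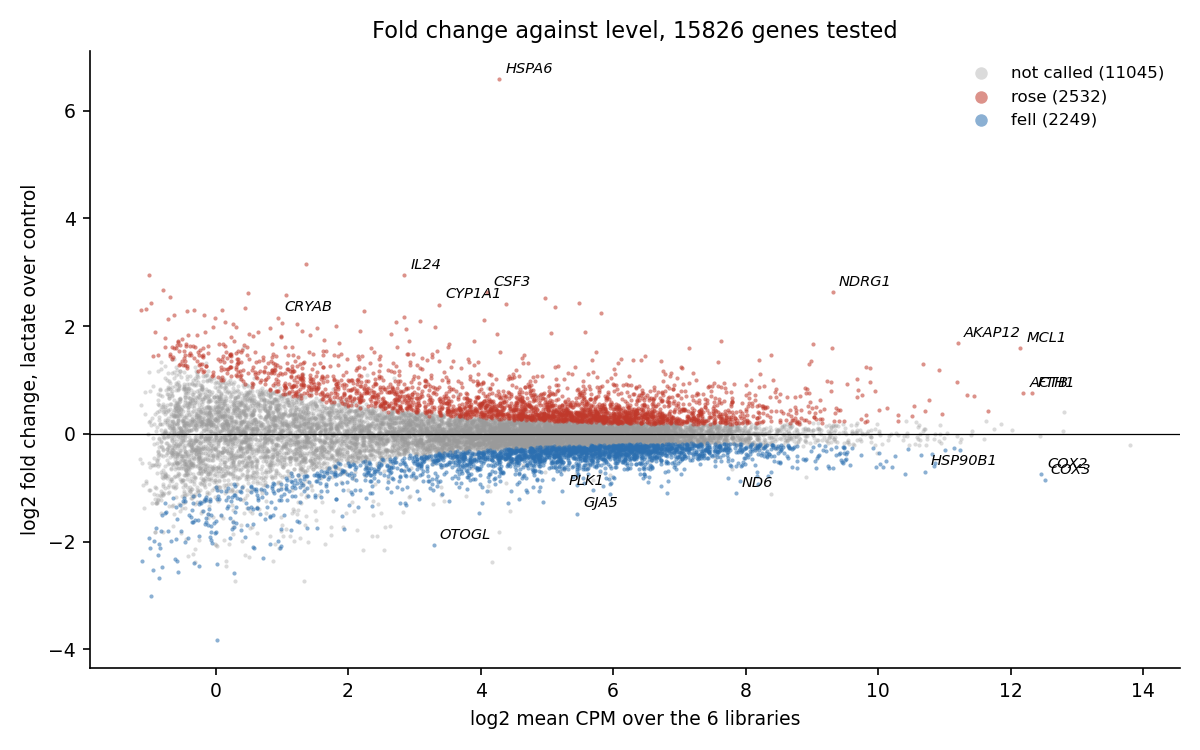
Fold change after lactate (log2, lactate over control) against level (log2 of the mean CPM over the 6 libraries) for the 15826 genes tested, each a point, coloured by call (2532 rose, 2249 fell). HSPA6 stands apart at 6.59, and COX2, COX3 and HSP90B1 are among the abundant genes that fell.

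The 250 bases before the start of HSPA6, CYP1A1 and ANKRD37 are shown because these 3 genes were among the largest rises and each belongs to a pathway with a known promoter element. The sequences are from RefSeq (GRCh38.p14), written 5′ to 3′ on the strand of the gene. Capitals mark the heat shock element GAANNTTC and its longer form, in which any 2 bases and GAA follow, in HSPA6, the xenobiotic response element core GCGTG in CYP1A1 and the hypoxia response element core ACGTG in ANKRD37, searched on both strands. HSPA6 lies on chromosome 1 (plus strand, window chr1:161524290-161524539), CYP1A1 on chromosome 15 (minus strand, chr15:74725529-74725778) and ANKRD37 on chromosome 4 (plus strand, chr4:185396591-185396840). In HSPA6 the short element begins at -180 and -69 from the start, and the longer one begins at -74 and contains the second. The match in CYP1A1 begins at -57. The 3 matches in ANKRD37 begin at -162, -161 and -143, the first of them overlapping because CACGTG reads ACGTG on both strands. Among the promoters of tested genes GAANNTTC occurred in 4.1%, its longer form in 0.3%, GCGTG in 44.9% and ACGTG in 23.1%. A match describes these letters and does not show that a factor binds.
HSPA6: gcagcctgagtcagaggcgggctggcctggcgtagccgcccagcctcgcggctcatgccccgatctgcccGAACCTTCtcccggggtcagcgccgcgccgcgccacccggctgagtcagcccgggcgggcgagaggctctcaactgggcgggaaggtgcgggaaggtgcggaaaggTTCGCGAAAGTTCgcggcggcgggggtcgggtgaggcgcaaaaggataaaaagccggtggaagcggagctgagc
CYP1A1: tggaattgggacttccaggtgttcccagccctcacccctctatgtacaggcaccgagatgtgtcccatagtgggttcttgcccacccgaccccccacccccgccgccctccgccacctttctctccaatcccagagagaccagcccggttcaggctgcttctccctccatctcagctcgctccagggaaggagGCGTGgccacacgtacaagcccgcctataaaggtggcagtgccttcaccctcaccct
ANKRD37: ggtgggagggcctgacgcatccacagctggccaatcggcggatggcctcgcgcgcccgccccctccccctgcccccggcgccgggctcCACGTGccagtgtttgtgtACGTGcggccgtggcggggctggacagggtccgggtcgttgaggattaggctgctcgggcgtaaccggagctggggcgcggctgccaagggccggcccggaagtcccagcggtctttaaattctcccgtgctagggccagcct

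HSPA6 had 7, 4 and 7 counts in control libraries 1, 2 and 3, and 572, 708 and 606 in lactate libraries 1, 2 and 3. These are 0.45, 0.325 and 0.405 CPM and 35.7, 36.6 and 43.1 CPM, a log2 fold change of 6.59 ± 0.18 (standard error, SE; adjusted p = 9.45e-14). All 3 lactate libraries were far above all 3 controls. The genes with the largest rises, falls and CPM differences were chosen among those without overlap of groups. That their groups lie apart was therefore fixed by the choice. A near-identical copy, HSPA7, exists in the genome, and how reads that fit both were counted is not given in the sources used here. CYP1A1, an enzyme that oxidises foreign aromatic compounds, stood at 3.28, 3.58 and 3.24 CPM in controls and 16.5, 17.8 and 17.8 CPM after lactate, with a narrow spread in both groups and no overlap (log2 fold change 2.40 ± 0.14, adjusted p = 8.37e-09). ANKRD37, a small ankyrin repeat protein induced in hypoxia, varied more, with 6.88, 12.3 and 9.66 CPM in controls and 37.8, 70.8 and 50.3 CPM after lactate, still without overlap (log2 fold change 2.52 ± 0.35, adjusted p = 0.00641). NDRG1, a cytoplasmic protein induced in hypoxia and by differentiation, went from 128, 251 and 163 CPM to 995, 1242 and 1045 CPM. Control 2 was its highest control, and every lactate library lay far above it (log2 fold change 2.63 ± 0.30, adjusted p = 0.00395).

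The secreted proteins among the largest rises included IL24, a cytokine of the IL-10 family, at 1.61, 1.46 and 1.91 CPM in controls and 10.2, 11.7 and 16.4 CPM after lactate. Its lactate libraries were all well above its controls, with a log2 fold change of 2.94 ± 0.20 (adjusted p = 1.07e-07). CSF3, the granulocyte colony-stimulating factor, rose from 3.41, 6.91 and 4.45 CPM to 27.4, 32.2 and 27.8 CPM (2.63 ± 0.18). IL1B, the precursor of interleukin-1 beta, rose from 14.7, 29.9 and 16.5 CPM to 98.6, 104 and 73.5 CPM (2.24 ± 0.34, adjusted p = 0.0103). Control 2 had the highest control value of NDRG1, ANKRD37, CSF3 and IL1B. Further rises were those of the transcriptional coregulator MN1 (2.40 on the log2 scale), KRT15, a keratin of basal epithelial cells (2.16), the clock repressor NR1D1 (2.11), the transmembrane collagen COL13A1 (1.999), the Nogo receptor homologue RTN4RL1 (1.99), the noncoding MGC12916 (2.07) and the metallothionein MT1F (1.94).

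By difference in CPM the order was another. MCL1, an anti-apoptotic member of the BCL2 family, stood at 1881, 2737 and 2225 CPM in controls and 6377, 7547 and 6316 CPM after lactate (log2 fold change 1.60 ± 0.13). This was the largest gain among called genes without overlap of groups that changed by at least 0.5 on the log2 scale. AKAP12, a scaffold of protein kinase A, rose from 815, 1448 and 1130.1 CPM to 3402, 3558 and 3767 CPM. FTH1, the ferritin heavy chain that stores iron, rose from 3413, 4179 and 3946 CPM to 6518, 6664 and 5933 CPM, and ACTB, the cytoskeletal beta-actin often used as a reference gene, from 3260.0, 3714 and 3573 CPM to 5706, 6068 and 5675 CPM. Both FTH1 and ACTB have processed copies in the genome, and reads from these cannot be separated here. The complement regulator CD55 rose as well (0.71 on the log2 scale).

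**Figure D3:**
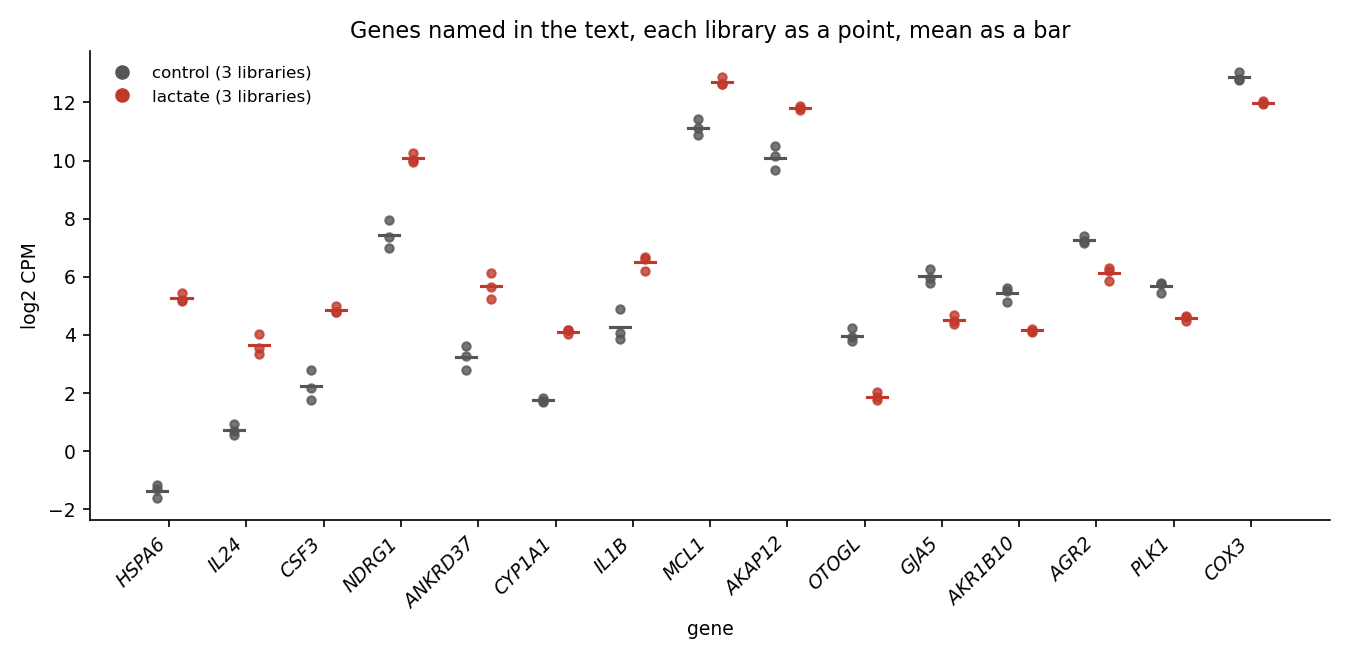
Levels (log2 CPM) of 15 named genes in the 3 control libraries (grey) and 3 lactate libraries (red), each library a point and each group mean a bar. For every gene drawn the lactate points lie wholly above the controls or, from OTOGL to COX3, wholly below them. All but PLK1 were chosen by a rule that required this.

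The largest fall among named genes was that of OTOGL, an otogelin-like protein of inner ear membranes, from 18.7, 13.7 and 15.3 CPM in controls to 4.12, 3.62 and 3.35 CPM after lactate (log2 fold change -2.07 ± 0.16, adjusted p = 2.56e-07). GJA5, which encodes the gap junction protein connexin 40, fell from 76.9, 55.8 and 62.5 CPM to 25.5, 20.8 and 22.5 CPM (-1.48 ± 0.12). AKR1B10, an aldo-keto reductase of the NRF2 response, fell from 48.6, 35.4 and 46.0 CPM to 18.4, 17.3 and 17.7 CPM (-1.26 ± 0.11). In each of the 3 the groups were clearly apart. AGR2, a disulfide isomerase of secretory epithelium, fell from 168, 142 and 151 CPM to 79.3, 72.9 and 58.1 CPM (-1.10 ± 0.12). Others in this set were FSTL4 (-1.47), ZNF596 (-1.32), the adaptor DOK3 (-1.31), the coactivator NCOA5 (-1.29), the mitochondrial carrier SFXN2 (-1.27), the heparan sulfate enzyme NDST4 (-1.27), COL14A1 (-1.24), PTPRQ (-1.21), the Ras-like RERG (-1.20) and the DNA helicase PIF1 (-1.12). Among abundant genes, NTS, the precursor of neurotensin, fell by 0.62, CPS1, the urea cycle enzyme carbamoyl phosphate synthetase, fell by 0.61, and the tubulin gene TUBA1B fell by 0.61 on the log2 scale.

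Genes that move or convert lactate itself were called about as often as all genes tested. Of 21 tested members of this list 3 rose (14.3%, against 16% of all genes tested) and 3 fell (14.3% against 14.2%). Their median log2 fold change was 0.14. LDHA stood at 3375, 3609 and 3535 CPM in controls and 3794, 3863 and 4005 CPM after lactate, slightly higher in every lactate library but not called (log2 fold change 0.18 ± 0.08, adjusted p = 0.101). LDHB, the subunit that favours the direction to pyruvate, fell from 1036, 959 and 949 CPM to 757, 725 and 714 CPM (-0.39 ± 0.08, adjusted p = 0.000934). The importer SLC16A1 was low in all libraries, at 1.48, 1.46 and 1.62 CPM and 1.81, 1.24 and 2.06 CPM, and was not called. The exporter SLC16A3 was called (0.34 ± 0.10, adjusted p = 0.0206), but its groups overlapped, with 1197, 1402 and 1311 CPM in controls and 1748, 1706 and 1376 CPM after lactate. SLC16A3 lost its call without control 1, control 3, lactate 1 or lactate 2 and in the fit of all 12 libraries. The receptor HCAR1 had 0 or 1 count in every library, too few to test. PDK1 and PDK3, kinases that switch off pyruvate dehydrogenase, rose (0.46 and 0.67), whereas PDHB, a subunit of that enzyme, and MPC1, a subunit of the mitochondrial pyruvate carrier, fell (-0.41 and -0.43). MPC1 lost its call without control 1, lactate 1 or lactate 2. The list count of 3 that rose became 5 without lactate 3 and 5 by DESeq2.

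Targets of the hypoxia-inducible factors outside glycolysis rose almost throughout. Of 31 tested members 27 rose and 0 fell, with a median of 0.69. For these 27 the groups did not overlap. Of all 15826 genes tested, 3184 had the lactate libraries wholly above the controls. Besides NDRG1 and ANKRD37, the set held VEGFA, the angiogenic growth factor, at 161, 221 and 193 CPM in controls and 400.2, 448 and 371 CPM after lactate (1.12 ± 0.12). ANGPTL4, a secreted inhibitor of lipoprotein lipase, rose from 986, 1491 and 1135 CPM to 2929, 2799 and 2313 CPM (1.19 ± 0.17). BHLHE40, a transcriptional repressor, rose from 247, 329 and 298 CPM to 681, 743 and 687 CPM (1.31 ± 0.09, adjusted p = 2.94e-07). In all 3 genes every lactate library was above every control. The vasodilator peptide ADM (1.13), the lipid droplet protein HILPDA (1.44), the mitophagy receptor BNIP3L (0.89), the mTORC1 inhibitor DDIT4 (0.72) and the prolyl hydroxylase EGLN3 (0.72) rose too. CA9, the carbonic anhydrase at the cell surface, rose by less (0.67 ± 0.18, adjusted p = 0.0314) and lost its call without control 3, lactate 1 or lactate 2. The members not called were EGLN1 (0.002), PLOD2 (-0.01), EFNA1 (0.14) and LOX, a collagen crosslinking enzyme with 1.22, 0.813 and 0.694 CPM in controls and 0.811, 0.103 and 0.142 CPM after lactate (-1.34 ± 0.60, adjusted p = 0.104). LOX was called lower with the replicate block, by limma-voom and without lactate 1, so that 1 member fell there. With each library left out in turn, 25 to 28 members rose. ACGTG lay within 250 bases before the start of 15 of the 25 members with a promoter in the table. Across all calls ACGTG was in 472 of 1887 promoters of genes that rose and 415 of 1722 (24.1%) of those that fell. Its share was 23.2% for genes that rose at least 2-fold and 14.0% for those that fell at least 2-fold, against 23.1% of all tested. Whether the element bears on the rises was not tested.

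Of 9 tested hypoxia factors and regulators 7 rose and 0 fell, or 4 in the fit of all 12 libraries. EPAS1, which encodes HIF-2 alpha, rose from 374, 421 and 422 CPM to 789, 766 and 807 CPM (0.99 ± 0.07, adjusted p = 2.43e-07), with a gap between the groups many times their spread. HIF1A was at 732, 799 and 787 CPM in controls and 899, 897 and 816 CPM after lactate, higher in each lactate library, but not called (0.20 ± 0.08, adjusted p = 0.0591). CITED2, which competes with these factors for the coactivator p300, rose by 0.78, and the partner ARNT2, at low level, by 1.17.

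Genes of glucose uptake and phosphorylation rose, while the abundant enzymes of the later steps of glycolysis were not called. Of 19 tested members 9 rose and 0 fell, with a median of 0.21. Transcripts of glucose transporters rose, with SLC2A3 (GLUT3) at 779, 1133 and 967 CPM in controls and 2228, 2608 and 2116 CPM after lactate (1.30 ± 0.14) and SLC2A1 (GLUT1) at 224, 282 and 261 CPM and 449, 470.0 and 418 CPM (0.84 ± 0.09). HK2, the hexokinase bound to mitochondria, rose from 138, 192 and 175 CPM to 383, 463 and 423 CPM (1.36 ± 0.11). In these 3 genes no lactate library came near the controls. The isoenzyme ALDOC (1.11) and the regulators PFKFB3 (0.45) and PFKFB4 (0.41) rose as well. In the later steps ENO2 was called (1.18), but not without lactate 1, lactate 2 or lactate 3. Not called were GAPDH at 0.05, PGK1 at 0.05, ENO1 at -0.10, PKM at -0.10 and TPI1 at -0.15. Storage of glucose as glycogen and its use in the pentose phosphate pathway gave 6 that rose and 4 that fell of 15. PPP1R3C, which directs phosphatase to glycogen (1.004), the phosphorylase PYGL (0.84) and the branching enzyme GBE1 (0.44) rose. The 4 that fell became 2 without control 1 and 1 in the fit of all 12 libraries.

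Of 25 genes of the citric acid cycle and glutamine use 2 rose and 7 fell, with a median of -0.10 (4 fell in the fit of all 12 libraries). IDH3A, a subunit of the NAD-dependent isocitrate dehydrogenase, fell from 104, 93.5 and 103 CPM to 66.0, 64.0 and 72.9 CPM (-0.54 ± 0.07), and the cytosolic IDH1 (-0.45) and fumarate hydratase FH (-0.35) fell. Pyruvate carboxylase PC (0.40) rose. The 2 that rose became 1 without control 1 or lactate 2 and 0 in the fit of all 12 libraries.

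Mitochondrial transcripts fell on both the mitochondrial and the nuclear side. All 13 mitochondrially encoded protein genes had a lower fitted level after lactate, 9 of them called (median -0.55). COX3, which belongs to the terminal oxidase of the respiratory chain, fell from 8463, 7255 and 7044 CPM to 4075, 3938 and 4254 CPM (-0.86 ± 0.09, adjusted p = 4.89e-06). COX2 fell from 7640.1, 6962 and 6673 CPM to 4513, 4123 and 3752 CPM (-0.75 ± 0.10), and ND1, a subunit of complex I, from 1824, 1581 and 1721 CPM to 1049, 946 and 1021 CPM (-0.73 ± 0.08). The lactate libraries of these 3 lay well below the controls. ND4, in contrast, stood at 5879.8, 5875 and 5335 CPM in controls and 5931, 5313 and 4949.9 CPM after lactate, with overlapping groups and no call (-0.04 ± 0.10), and COX1 was not called either (-0.20 ± 0.09). ND6, the only one of them on the other strand, fell (-1.11 ± 0.25, adjusted p = 0.0302), but lost its call without control 1, control 2 or lactate 3 and with no filter on low counts. Without a stated strand setting ND6 and its antisense reads cannot be told apart, and nuclear copies of mitochondrial DNA exist.

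On the nuclear side, 15 of 26 genes of mitochondrial transcription and RNA handling fell and 2 rose (median -0.25), 23 of 46 mitochondrial ribosomal proteins fell and 1 rose (median -0.20), and 13 of 24 genes of import and folding fell and 1 rose (median -0.28). HSPD1, the HSP60 chaperonin of the matrix, fell from 837, 699.7 and 817 CPM to 492, 494 and 506 CPM (-0.63 ± 0.08), and its partner HSPE1 fell by 0.99. TRMT10C, which processes mitochondrial tRNA, fell from 52.8, 45.9 and 43.0 CPM to 28.9, 26.7 and 33.6 CPM (-0.64 ± 0.10), and the polynucleotide phosphorylase PNPT1 fell by 0.47. Every lactate library of HSPD1 and TRMT10C was below every control. TFAM, which packages mitochondrial DNA, was called with overlapping groups (-0.32), and lost its call without control 1, control 3 or lactate 2. The polymerase gene POLG (0.41) rose. The 15 became 8 without control 1, 9 without control 3, 9 without lactate 2 and 5 in the fit of all 12 libraries, and the 23 became 14 without control 1, 15 without lactate 2 and 7 in that fit. The 13 became 8 in the latter. The 2 that rose became 1 without control 1 or lactate 2 and in that fit, and the 1 ribosomal protein that rose became 0 without control 1, control 3, lactate 1 or lactate 2 and in that fit, as did the 1 import gene in that fit.

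Enzymes that act on chromatin with 2-oxoglutarate rose in part, with 11 of 19 called higher and 0 lower (median 0.31). KDM7A, a histone demethylase, rose from 45.4, 53.2 and 51.4 CPM to 83.2, 93.8 and 97.5 CPM (0.90 ± 0.08), and JMJD6 from 75.7, 80.1 and 75.3 CPM to 116, 129 and 115 CPM (0.68 ± 0.07). Both had a clear gap between groups. KDM5C (0.46) and KDM6B (0.49) rose by less, while TET2 (0.13) and KDM4A (-0.05) were not called. The 11 became 5 without control 1 and 5 in the fit of all 12 libraries, and without control 2, 1 fell. Among enzymes that add or remove acetyl and related groups on histones 8 of 23 rose and 1 fell (median 0.07). HDAC5 (0.99) and HDAC9 (0.96) rose and HDAC2 fell (-0.32). The 8 became 5 without control 1, control 2 or lactate 2, 4 without control 3 and 4 in the fit of all 12 libraries, and the 1 that fell became 2 without lactate 3. TXNIP, an arrestin-like protein induced by glucose, rose from 539.5, 803 and 608 CPM to 1264, 1423 and 1007 CPM (0.96 ± 0.20, adjusted p = 0.0159) and lost its call without lactate 1.

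Genes that respond within minutes to growth factors and stress were higher as groups. Of 24 immediate early genes outside AP-1 16 rose and 0 fell (median 0.69), and of 13 members of the AP-1 family, which forms dimers at TGANTCA sites, 8 rose and 0 fell (median 0.50). FOSL1 rose from 38.5, 50.6 and 45.8 CPM to 107, 127 and 105 CPM (1.37 ± 0.11, adjusted p = 1.92e-06) and JUNB from 181, 242 and 212 CPM to 370.0, 426 and 340.2 CPM (0.88 ± 0.12). The 2 genes showed no overlap of groups. ATF3 (0.86) and JUN (0.64) also rose, whereas FOS was at 32.9, 42.7 and 37.8 CPM in controls and 41.5, 42.7 and 36.5 CPM after lactate and was not called (0.13 ± 0.10). ZFP36L1, which destabilises short-lived mRNAs, rose from 146, 213 and 182 CPM to 500.3, 549 and 410.0 CPM (1.47 ± 0.18), and its relative ZFP36 by 1.33. The matricellular gene CYR61 (now CCN1) rose by 1.37, NR4A2 by 1.03 and EGR1 by 0.78. Of 12 Kruppel-like factors 11 rose (median 0.54), or 7 in the fit of all 12 libraries. KLF6 rose from 84.7, 98.6 and 95.9 CPM to 159.8, 169 and 191 CPM (0.93 ± 0.08, adjusted p = 6.73e-07), and KLF4, KLF7 and KLF9 by 0.88, 0.88 and 0.87.

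Feedback inhibitors of MAP kinase signalling rose in 12 of 20 cases and fell in 0 (median 0.44). PHLDA1 rose from 203, 294 and 257 CPM to 747, 816 and 776 CPM (1.67 ± 0.11), and DUSP5, a nuclear ERK phosphatase, from 73.2, 119 and 91.4 CPM to 261, 372 and 275 CPM (1.72 ± 0.25). ERRFI1, an inhibitor of the EGF receptor, rose from 1360.4, 1860.0 and 1591 CPM to 2977, 3171 and 2985 CPM (0.96 ± 0.10). For these 3 genes the lowest lactate library was above the highest control. The ERK inhibitors SPRY2 (1.01) and SPRY4 (0.93) and the phosphatase DUSP6 (0.70) rose too. In the EGF family the ligands TGFA (0.99) and HBEGF (0.79) rose and BTC (-0.77) fell. Of 18 members of this family 5 rose (27.8%, against 16% of all genes tested) and 2 fell (11.1% against 14.2%). The 5 became 8 without lactate 3 and 2 in the fit of all 12 libraries. The 2 that fell became 0 in that fit and 1 without control 1 or lactate 3.

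Of 22 NF-kB factors and feedback inhibitors 13 rose and 1 fell (median 0.34), or 8 that rose in the fit of all 12 libraries and 0 that fell without control 1. The subunit RELA rose from 61.4, 70.1 and 69.1 CPM to 103, 111 and 89.8 CPM (0.64 ± 0.09), and TNFAIP3 (A20), which shuts the pathway off, from 565, 699 and 645 CPM to 985, 1051 and 971 CPM (0.69 ± 0.09). Each showed a gap between groups. TRAF1 (0.87), TNIP2 (0.81) and NFKBIZ (0.71) rose. Among 24 chemokines and cytokines 11 rose and 3 fell (median 0.27). CXCL8, which attracts neutrophils, rose from 496, 605 and 556 CPM to 938, 1193 and 1151 CPM (1.02 ± 0.10, adjusted p = 2.1e-06). CCL20, which attracts lymphocytes and dendritic cells, rose from 24.8, 37.3 and 23.1 CPM to 68.1, 88.1 and 79.4 CPM (1.51 ± 0.19), and IL1A from 67.3, 98.8 and 74.0 CPM to 166, 203 and 179.7 CPM (1.23 ± 0.15). Lactate libraries were above controls in all 3. The interferon-induced CXCL10 fell from 4.25, 4.06 and 4.11 CPM to 1.81, 2.17 and 1.78 CPM (-1.07 ± 0.22). Without lactate 2 the 3 that fell became 1. CD68 was the leukocyte marker that moved with these genes, from 30.8, 50.2 and 37.8 CPM to 97.2, 104 and 85.6 CPM. It carried the summed level of the 6 leukocyte markers, 30.9 to 50.3 CPM in controls and 86.1 to 104 CPM after lactate, the defining PTPRC, CD3E and MS4A1 being at or near 0, and its part in the result was not tested.

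Interferon-stimulated genes moved in both directions, with 8 of 29 rising and 7 falling (median -0.08). IFI44L fell from 120.2, 106 and 116 CPM to 69.9, 61.1 and 63.4 CPM (-0.78 ± 0.08) and OASL fell by 0.52, while IRF1 (0.49) and IFIH1 (0.44) rose. The 8 became 4 without control 1 or control 3, 5 without lactate 2 and 4 in the fit of all 12 libraries, where the 7 became 3. Of 16 tested genes of antigen presentation on MHC class I none rose and 3 fell (18.8%, against 14.2% of all genes tested). The chaperone CALR was among those that fell (-0.52). The 3 became 1 without control 1 or lactate 2 and 5 without lactate 1, and were 5 with no filter or with the replicate block and 1 in the fit of all 12 libraries, while 1 rose with no filter or without lactate 3. CD274 (PD-L1) was not called (-0.003 ± 0.23). HLA-E, TAP1 and PSMB9 had no counts in any of these 6 libraries, control or lactate. They lie in the MHC region of chromosome 6, where 8 of 142 protein-coding genes (5.6%) passed the filter on low counts, and the reason was not tested.

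The cytosolic heat shock genes did not follow HSPA6. Of 30 tested members 3 rose and 13 fell, with a median of -0.19. Those that rose were HSPA6, the small heat shock protein CRYAB, at 0.45, 0.975 and 0.752 CPM in controls and 2.87, 3.67 and 2.85 CPM after lactate (2.16 ± 0.32), and HSPA2 (0.74). HSP90AA1, the inducible HSP90, fell from 1259.6, 1059.5 and 1215 CPM to 824, 872 and 998 CPM (-0.36 ± 0.09). The cochaperone DNAJA1 fell by 0.44 and the chaperonin subunit CCT3 fell by 0.48. The constitutive HSPA8 was not called (-0.19). HSPA1A had 0 to 2 counts per library. HSPA1B had 6, 5 and 21 counts in controls and 24, 16 and 18 after lactate and was not called. With so few counts the main inducible HSP70 genes could hardly be read. The 13 became 8 without control 1 and 7 in the fit of all 12 libraries. Of the 26 members with a RefSeq promoter, 8 held GAANNTTC in the 250 bases before the start, and 3 held its longer form. Those 3 were HSPA6, HSPA8 and CHORDC1, and the latter 2 were not called.

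Chaperones of the endoplasmic reticulum were lower where they changed, with 9 of 26 falling and 1 rising (median -0.25). HSP90B1 (GRP94) fell from 2099.9, 2057 and 2086 CPM to 1429, 1258 and 1063 CPM (-0.70 ± 0.10) and MANF from 112, 103 and 105 CPM to 68.4, 65.3 and 52.7 CPM (-0.74 ± 0.10). In both, lactate 3 was the lowest library and lactate 1 the highest of its group. DNAJB11 fell by 0.52, the sensor ERN1 rose (0.40), and PDIA4 was not called (-0.80 ± 0.24, adjusted p = 0.0637). Without lactate 1 the 9 became 14. Targets of ATF4, the factor of the integrated stress response, split into 13 that rose and 5 that fell of 30 (median 0.09). The phosphatase subunit PPP1R15A (GADD34) rose from 112, 140.3 and 118 CPM to 198, 237 and 228 CPM (0.88 ± 0.09), the cytokine GDF15 by 0.80 and SESN2 by 0.69. ATF5 fell by 0.74 and the cystine transporter SLC7A11 fell by 0.42. The 5 became 2 without control 1, 3 without control 3 or lactate 2 and 2 in the fit of all 12 libraries, where 7 rose.

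Targets of NRF2, the regulator of antioxidant enzymes, fell in 16 of 29 cases and rose in 2 (median -0.27). NQO1, a quinone reductase, fell from 573, 446 and 497 CPM to 336, 315 and 323 CPM (-0.61 ± 0.09) and TXNRD1, thioredoxin reductase, from 1347, 1143 and 1268 CPM to 812, 806 and 865 CPM (-0.57 ± 0.08). In both genes, and in AKR1B10 given above, the groups were apart. AKR1B1 (-0.63), the exporter ABCC2 (-0.60) and superoxide dismutase SOD1 (-0.50) fell as well. HMOX1, heme oxygenase, rose (0.61 ± 0.11), and NFE2L2, which encodes NRF2, was not called (0.12). The 2 that rose became 1 without control 1, control 3 or lactate 2, 4 without lactate 3 and 1 in the fit of all 12 libraries. Among metallothioneins and zinc transporters 5 of 8 rose and 1 fell (3 rose in the fit of all 12 libraries). The 1 became 0 in that fit, by DESeq2, by limma-voom and without control 1, control 3, lactate 1 or lactate 2. MT1X rose from 477, 729.7 and 517 CPM to 1266, 1404 and 1272 CPM (1.23 ± 0.15), and MT1A (1.21) and MT2A (0.51) rose too. The metallothionein genes are close copies of each other, so reads may have been shared among them. The transferrin receptor TFRC, which imports iron, fell from 873, 822 and 859 CPM to 574, 586 and 629 CPM (-0.48 ± 0.07), opposite to FTH1. Of 12 tested genes of iron storage and uptake 2 rose (16.7%, against 16% of all genes tested) and 1 fell (8.3% against 14.2%). The other 9 were not called (list median -0.04). Of the aryl hydrocarbon receptor targets beside CYP1A1, TIPARP (0.93) and CYP1B1 (0.40) rose while ALDH3A1 fell from 450.2, 310.0 and 399.9 CPM to 209, 211 and 173 CPM (-0.94 ± 0.15).

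Of 12 carbonic anhydrases and pH transporters 4 rose (33.3%, against 16% of all genes tested) and 2 fell (16.7% against 14.2%). The anion exchanger SLC4A2 fell from 293, 265 and 286 CPM to 204, 181 and 182 CPM (-0.54 ± 0.07). The 4 became 2 without control 3, lactate 1 or lactate 2 and in the fit of all 12 libraries, and the 2 became 1 without lactate 2 and in that fit. Of 16 genes of osmotic stress 6 rose (37.5%) and 1 fell (6.2%), or 4 fell without lactate 3 and 2 by DESeq2. TSC22D3 (GILZ), which glucocorticoids and salt stress induce, rose from 293, 357 and 307 CPM to 870.2, 1085 and 870.2 CPM (1.60 ± 0.11, adjusted p = 4.82e-07), and the aquaporin AQP3 rose by 0.98.

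**Figure D4:**
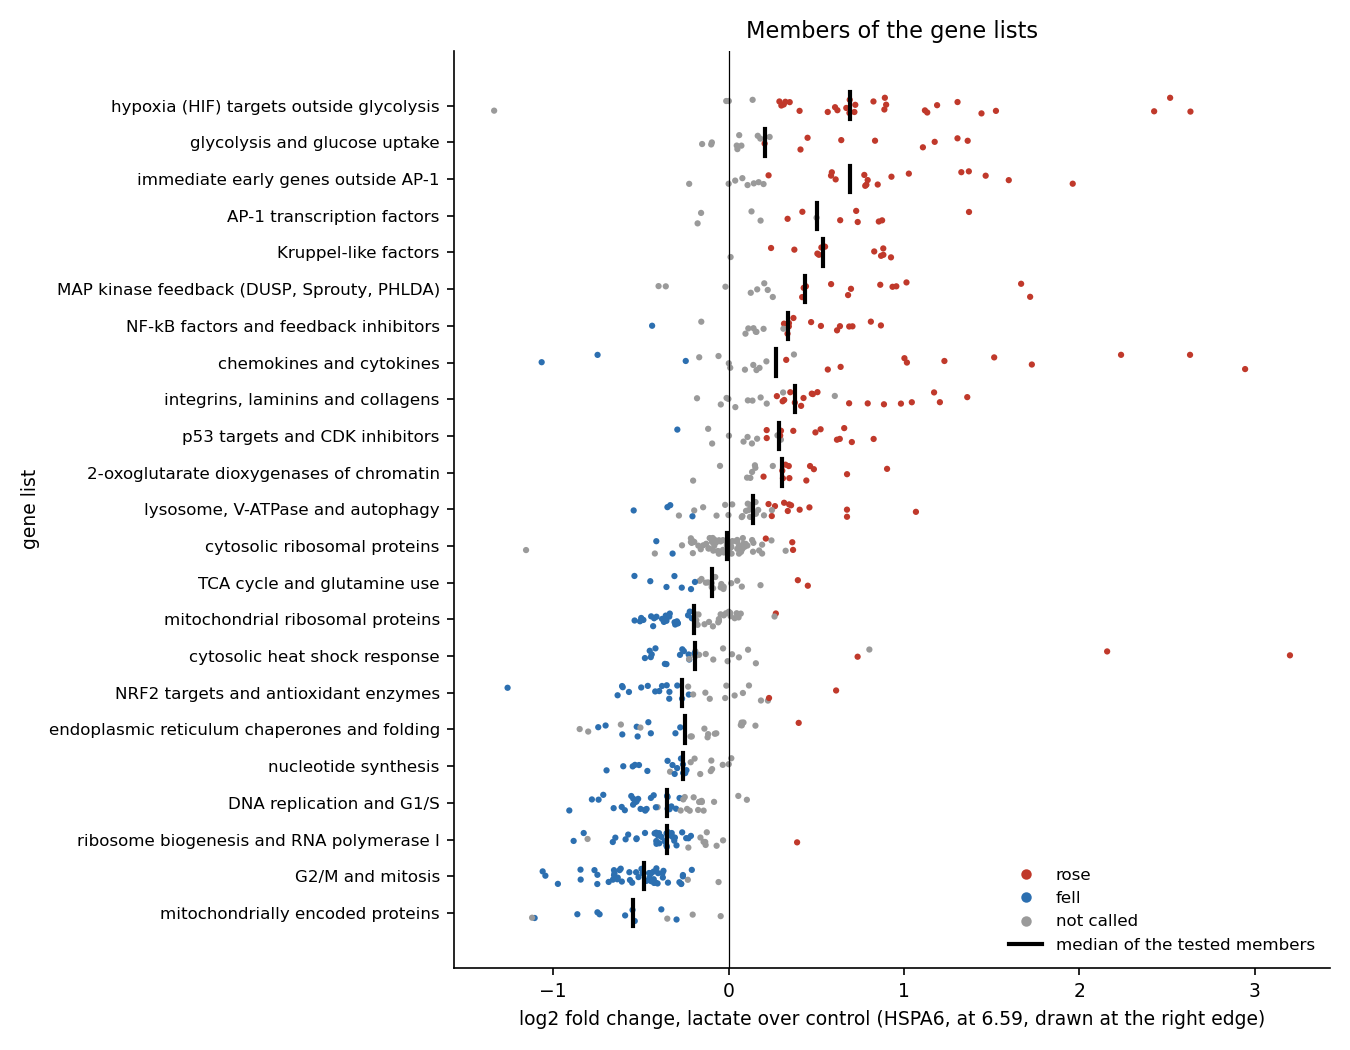
Log2 fold change of every tested member (points) of 23 gene lists, coloured by call, with the median of each list as a black bar. Lists from hypoxia targets to chromatin dioxygenases lie mostly to the right of 0, ribosomal proteins centre on 0, and lists from mitochondrial ribosome to mitochondrially encoded proteins lie mostly to the left.

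Of the lists counted here, genes of the G2 phase and mitosis had the highest share of falls. All 50 tested genes of the G2 phase and mitosis had a lower fitted level after lactate, 47 were called, and for 44 the groups did not overlap (median -0.48). Of all 15826 genes tested, 3741 had the lactate libraries wholly below the controls. With each library left out in turn, 38 to 48 were called. PLK1, the kinase that drives mitotic entry, fell from 55.8, 44.0 and 53.5 CPM to 25.1, 24.8 and 22.1 CPM (-1.06 ± 0.10, adjusted p = 2.28e-06). CCNB1, which encodes cyclin B1, fell from 162, 118 and 144 CPM to 71.9, 66.7 and 73.4 CPM (-0.97 ± 0.10), and the spindle kinesin KIF4A from 61.9, 50.6 and 56.5 CPM to 30.6, 31.3 and 35.9 CPM (-0.76 ± 0.09). In these genes no lactate library reached the lowest control. KIF20A (-1.04), the ubiquitin-conjugating enzyme UBE2C (-0.84), the factor FOXM1 (-0.75) and MKI67, the Ki-67 antigen (-0.45), fell too. Control 2 was the lowest control for PLK1, CCNB1 and KIF4A.

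Many promoters of this group carry a cell cycle genes homology region (CHR, TTTGAA), which the DREAM and MuvB complexes bind, next to CCAAT boxes for the factor NF-Y. PLK1 and KIF4A are shown as members with both. The sequences are from RefSeq (GRCh38.p14), 5′ to 3′ on the strand of the gene, with TTTGAA and CCAAT in capitals on either strand. The PLK1 window is chr16:23678639-23678888 on the plus strand, with CCAAT from -73 and TTTGAA from -29. The KIF4A window is chrX:70289854-70290103 on the plus strand, with ATTGG, the reverse of CCAAT, from -58 and TTTGAA from -34.
PLK1: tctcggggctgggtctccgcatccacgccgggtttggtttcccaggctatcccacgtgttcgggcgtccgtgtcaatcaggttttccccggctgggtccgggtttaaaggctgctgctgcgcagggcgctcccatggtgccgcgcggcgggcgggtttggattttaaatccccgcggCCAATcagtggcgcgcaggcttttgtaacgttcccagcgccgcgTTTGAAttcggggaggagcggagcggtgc
KIF4A: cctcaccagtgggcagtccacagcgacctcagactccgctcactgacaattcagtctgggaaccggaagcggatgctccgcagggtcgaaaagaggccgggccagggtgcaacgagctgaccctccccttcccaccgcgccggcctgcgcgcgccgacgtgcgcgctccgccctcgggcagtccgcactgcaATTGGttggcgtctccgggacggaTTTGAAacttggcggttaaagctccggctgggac

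TTTGAA lay in the 250 bases before the start of 21 of the 42 G2 and mitosis genes with a promoter in the table, and CCAAT in 34 of the 42. Over all 11275 tested genes with a promoter the shares were 8.6% and 34.8%. Of the 21, 15 (71.4%) had TTTGAA beginning within 60 bases of the start, against 163 of 973 (16.8%) over all tested genes with a match. Across all calls TTTGAA was in 11.7% of promoters of genes that fell, 24.0% of those that fell at least 2-fold and 6.9% of those that rose. The E2F element TTTNGCGC lay in 11 of 35 promoters of the replication list against 2.4% of all tested, and the TATA box TATAAA in 13.4% of genes that rose at least 2-fold and 14.0% of those that fell at least 2-fold against 5.8%.

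DNA replication and the G1/S transition gave 28 of 44 genes that fell and 0 that rose (median -0.35). MCM3, a subunit of the replicative helicase, fell from 122, 100.4 and 113 CPM to 65.9, 61.5 and 69.5 CPM (-0.74 ± 0.08, adjusted p = 4.82e-06), and the loader CDC6 from 40.0, 33.7 and 39.1 CPM to 20.5, 22.8 and 24.1 CPM (-0.71 ± 0.10). Groups were separate in both. GINS2 (-0.91), MCM10 (-0.78) and the sliding clamp PCNA (-0.53) fell as well. Of 29 genes of homologous recombination and the Fanconi pathway 15 fell and 0 rose (median -0.29), led by XRCC3 (-0.91) and FANCI (-0.80), or 6 in the fit of all 12 libraries. Nucleotide synthesis showed 15 of 25 falling and 0 rising (median -0.26), with UMPS of the pyrimidine pathway from 47.4, 43.9 and 42.0 CPM to 26.7, 25.1 and 28.9 CPM (-0.70 ± 0.09), CTPS1 at -0.60 and TK1 at -0.55. In the fit of all 12 libraries 8 of these fell.

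Inhibitors of the cell cycle and p53 targets rose in 12 of 22 cases and fell in 1 (median 0.29). CDKN1A, which encodes the CDK inhibitor p21, rose from 325, 367 and 357 CPM to 562, 599 and 507 CPM (0.70 ± 0.08, adjusted p = 1.38e-05) without overlap, and GADD45A (0.83), GADD45B (0.66) and the apoptosis promoter BBC3 (0.63) rose. The 12 became 7 without control 1 and 5 in the fit of all 12 libraries, and the 1 that fell became 0 in that fit and without control 1, control 3 or lactate 2. The BCL2 family gave 10 of 17 that rose and 1 that fell (median 0.30), the 1 becoming 0 in the fit of all 12 libraries and without control 1, control 2, lactate 1 or lactate 3. Beside MCL1, the pro-apoptotic BMF rose from 1.35, 1.06 and 1.16 CPM to 4.18, 4.598 and 3.70 CPM (1.83 ± 0.25). In the network of MYC and its partners 5 of 10 rose and 0 fell (median 0.21), and the fitted level of the other 5 was lower after lactate. MYC rose from 368, 415 and 397 CPM to 469, 529.7 and 566 CPM (0.44 ± 0.08), and its antagonists MXD1 (1.05) and MNT (0.83) rose with it. MXD3, another antagonist, was not called (-0.97 ± 0.31, adjusted p = 0.0668), but was called lower with no filter, with the replicate block, in the fit of all 12 libraries, by DESeq2, by limma-voom and without control 3 or lactate 1.

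Ribosome biogenesis fell while the ribosomal proteins did not move as a group. Of 42 genes of ribosome assembly and RNA polymerase I 32 fell and 1, TAF1D, rose (median -0.35), with 41 of the 42 at a lower fitted level. NOP56, a box C/D snoRNP protein, fell from 168, 129 and 149 CPM to 83.8, 73.0 and 80.1 CPM (-0.88 ± 0.09, adjusted p = 4.43e-06), and UBTF, the activator of RNA polymerase I, from 94.2, 83.4 and 94.4 CPM to 60.5, 54.2 and 55.7 CPM (-0.65 ± 0.08). All lactate libraries of NOP56 and UBTF were below the controls. NOP16 (-0.83) and nucleolin, NCL (-0.57), fell too. The 32 became 18 in the fit of all 12 libraries. Of 75 tested cytosolic ribosomal proteins 3 rose and 2 fell, and the median was -0.01. Among those that rose were RPL21 (0.37) and RPS27 (0.21), which both lost their call in that fit and without control 1, control 2 or lactate 2, and those that fell were RPL23A (-0.41) and RPL41 (-0.32). Ribosomal protein genes have many processed copies that can share reads. These counts ran from 0 to 7 for rises and from 2 to 4 for falls as each library was left out in turn. Rises numbered 0 without control 1, control 2 or lactate 2, 5 without control 3 and 7 without lactate 3, and falls numbered 8 with the replicate block, 4 with no filter, DESeq2 or limma-voom or without control 3, and 1 in the fit of all 12 libraries.

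**Figure D5:**
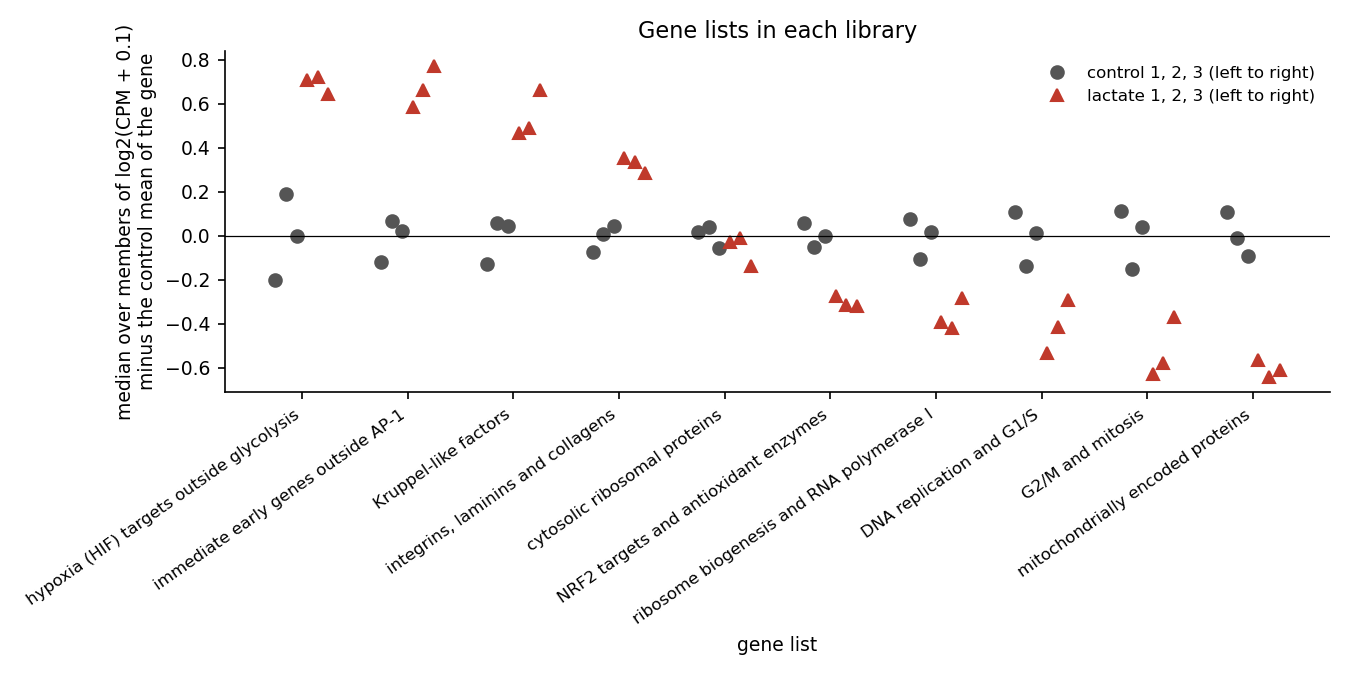
Median over the tested members of 10 lists of log2(CPM + 0.1) minus the gene's control mean, for control libraries 1, 2 and 3 (grey circles) and lactate libraries 1, 2 and 3 (red triangles). For hypoxia targets the controls lie at -0.203, 0.189 and 0.000 and the lactate libraries at 0.707, 0.720 and 0.646, for G2 and mitosis genes at 0.112, -0.152 and 0.038 and at -0.626, -0.579 and -0.371, and for ribosomal proteins the 2 groups overlap.

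Adhesion and matrix genes rose, with 18 of 29 integrins, laminins, collagens and their proteases and inhibitors called higher and 0 lower (median 0.38), or 11 in the fit of all 12 libraries. ITGA5, the alpha chain of the fibronectin receptor, rose from 236, 333 and 296 CPM to 772, 732 and 669 CPM (1.36 ± 0.12), and TIMP1, a metalloproteinase inhibitor, from 437, 533 and 427 CPM to 897, 800.5 and 665 CPM (0.79 ± 0.13). Both groups were apart in each. The collagen gene COL17A1 (1.20) rose. COL1A1, listed among fibroblast markers, rose from 19.1, 21.2 and 22.9 CPM to 48.7, 49.2 and 48.3 CPM (1.24 ± 0.09), while the summed level of the 6 fibroblast markers was 248 to 261 CPM in controls and 244 to 257 CPM after lactate. Targets and factors of YAP and TEAD gave 12 of 25 that rose and 1 that fell (median 0.32), with AXL (0.99) and CTGF (now CCN2, 0.85) among them. The 1 became 3 without lactate 3, 2 without control 2, with no filter, with upper quartile scaling or with the replicate block, and 0 in the fit of all 12 libraries. Of 28 TGF-beta ligands, receptors and targets 8 rose (28.6%, against 16% of all genes tested) and 0 fell (median 0.23). In the fit of all 12 libraries 5 rose. ID1 stood at 1.003 and TGFB1 at 0.69.

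Lineage genes moved in several directions. SNAI1, a repressor of E-cadherin, rose from 3.54, 4.47 and 3.24 CPM to 8.73, 8.78 and 9.82 CPM (1.32 ± 0.16), and SNAI2 (0.69) and ZEB2 (0.56) rose, while the mesenchymal cadherin CDH11 fell from 24.1, 19.996 and 25.5 CPM to 11.9, 9.40 and 11.8 CPM (-1.05 ± 0.13). Each of these 4 had separate groups. In this list of 12 factors and cadherins 4 rose and 1 fell, or 7 rose without lactate 3. The simple keratins KRT8 (-0.50) and KRT18 (-0.60) fell and KRT19 (0.72) and KRT7 (0.61) rose. The summed level of the 10 epithelial markers, VIM left out, was 1949 to 2299 CPM in controls and 1400 to 1665 CPM after lactate, most of it KRT8 and KRT18. Without lactate 1 the 2 of 10 keratins that fell became 4. Of 21 junction genes 8 rose and 3 fell, with plakoglobin, JUP, at 0.88 and the adhesion molecule F11R at 0.78, and with GJA5 among those that fell. Without control 1 or control 3, and in the fit of all 12 libraries, the 3 became 1. Only 10 of 36 intestinal lineage genes passed the filter on low counts, and 4 of them rose, among them GATA6, from 3.47, 3.90 and 4.57 CPM to 9.23, 10.95 and 12.7 CPM (1.48 ± 0.16), and the Notch target HES1 (1.32). The Wnt feedback genes AXIN2, from 23.3, 17.1 and 22.5 CPM to 11.2, 10.8 and 10.5 CPM (-0.92 ± 0.13), and ZNRF3 (-0.56) fell, whereas SOX9 (0.84) and CD44 (0.69) rose. Of the 17 tested members of that list 4 rose (23.5%, against 16% of all genes tested) and 2 fell (11.8% against 14.2%).

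Of 27 genes of cholesterol synthesis and uptake 4 rose (14.8%, against 16% of all genes tested) and 5 fell (18.5% against 14.2%). NPC1, which moves cholesterol out of lysosomes, rose from 67.7, 82.9 and 77.3 CPM to 148, 151 and 169 CPM (1.07 ± 0.08, adjusted p = 2.14e-07), and INSIG1 (0.75) rose, while LSS (-0.67) fell. The 5 became 1 without control 1, 2 without lactate 2, 3 without lactate 3, 3 by DESeq2 and 2 in the fit of all 12 libraries. In fatty acid synthesis 3 of 21 rose (14.3%) and 6 fell (28.6%, with 2 falling in that fit). The lipid droplet protein PLIN2 (0.76) rose, and ELOVL6 fell (-0.59 to -0.42 with each library left out). In the list of fatty acid oxidation and PPAR genes 1 of 23 rose (4.3%), or 3 without lactate 3. In that list 7 fell (30.4%), or 4 in the fit of all 12 libraries. Among them the fatty acid carrier CD36 fell from 141, 134 and 148 CPM to 86.6, 82.8 and 87.3 CPM (-0.69 ± 0.07). Of 16 polyamine and arginine genes 4 rose and 5 fell, or 1 fell in the fit of all 12 libraries. The catabolic SAT1 rose from 550.2, 690.0 and 583 CPM to 999.6, 1101 and 1043 CPM (0.82 ± 0.09), and the synthetic AMD1 (-0.45) and SRM (-0.43) fell, but spermine synthase SMS rose (0.66).

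Among 36 genes of lysosome and autophagy 12 rose and 4 fell (median 0.14), or 5 and 1 in the fit of all 12 libraries. The autophagy kinase ULK1 rose from 89.2, 105 and 109.9 CPM to 158, 168 and 149 CPM (0.68 ± 0.08), the mTORC1-linked GTPase RRAGD by 0.68, and SQSTM1, the autophagy receptor p62, fell (-0.33). In insulin signalling IRS2 rose from 119, 154 and 138 CPM to 251, 255 and 238 CPM (0.89 ± 0.09) and IRS1 fell from 109, 96.6 and 105 CPM to 65.0, 63.1 and 64.3 CPM (-0.66 ± 0.07), each with separate groups. The factor FOXO3 rose (0.70) and AKT1 fell (-0.35). Of 28 members of that list 7 rose and 2 fell, or 11 rose without lactate 3 and 1 fell in the fit of all 12 libraries. Among 23 long noncoding RNAs of stress and growth 5 rose and 3 fell, with LUCAT1 (0.90), LINC-PINT (0.75) and the hypoxia-induced MIR210HG (0.72) up and the snoRNA host SNHG1 down (-0.63). Of 19 aminoacyl-tRNA synthetases 4 rose (21.1%) and 7 fell (36.8%). The 4 became 1 without control 1, control 2, control 3 or lactate 2, 2 with no filter on low counts and 1 in the fit of all 12 libraries, where 3 fell.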

How the data were processed

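RNA-seq libraries of SW480 and DLD1 cells with and without lactate, 3 per group, were used as the table of read counts per gene that the authors deposited. Per the submitters' processing notes HISAT2 and GRCh38 were used. Which counter, gene models and strandedness were used, and which release of HISAT2, is not given in the sources used here. Groups follow the labels. The 6 SW480 libraries were fitted alone in edgeR 4.0.16 (R 4.3.3) after filterByExpr, with TMM scaling and the robust quasi-likelihood test, two-sided, with Benjamini-Hochberg adjustment over 15826 of 54261 gene symbols and a threshold of 0.05. CPM is a count divided by the library total and multiplied by 1000000, and the SE of a log2 fold change is its size divided by the square root of F. Alternatives were DESeq2 1.42.0, limma-voom (limma 3.58.1), other scalings and filters (none, or 1 CPM in 3 libraries), a replicate block, a fit of all 12 libraries, a 2-fold threshold and leaving out each library. The test was checked on simulated counts. Members and lists were chosen with earlier results of these data known.

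Genes were named by a rule. In each direction it took the 15 called genes that changed by the largest factor (at least 5 CPM in the higher group, no overlap of groups, pseudogenes, antisense and unnamed loci left out). In each direction it also took the 10 called genes with the largest CPM difference (log2 fold change of at least 0.5, no overlap of groups). Added to these were up to 5 called members per list with the smallest p, and LDHA, LDHB, SLC16A1, SLC16A3, HCAR1, TXNIP, HIF1A, MYC, NDRG2 and CD274. Further list members were named after their values were seen, leaving out most that lost their call without a library. Of the tested symbols 14176 matched RefSeq (GRCh38.p14) by current name, 792 by an older name and 858 not at all. Promoters came from RefSeq for 11275 of them. Results for some genes are not reported here.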

Additional observations from a re-analysis of the deposited data

How the results depend on the processing

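No gene called in the fit of 6 libraries was called in the opposite direction under any alternative. Calls numbered 4155 with DESeq2, 4860 with limma-voom, 4804 with RLE scaling, 4787 with upper quartile scaling, 4921 with no filter on low counts and 4741 with the stricter one. With the 12 libraries of both lines in 1 fit they numbered 2181 (1201 rose, 980 fell), of which 2121 were also called in the fit of 6. Calls of at least 2-fold numbered 636 (422 rose, 214 fell). With each library left out in turn the calls ran from 2821 to 5081, with 1577 to 2713 that rose and 1244 to 2394 that fell, and the lowest was without control 1. The cause was not tested. Deviations of libraries with the same replicate number correlated at 0.104, 0.0357 and 0.2 over 13073 genes, not every pair over 0.1, so they were taken to share only a number. Control 1, control 3 and lactate 3 correlated best with their own number, control 2 with lactate 1 (0.152), lactate 1 with control 2 and lactate 2 with control 3 (0.086). With the replicate number as a block 5178 genes were called (2632 rose, 2546 fell). Uncalled genes near 0 changed sign. CD274 (-0.0031726 on the log2 scale) stood at 0.0012365 with no filter and ran from -0.22782 to 0.20856 with each library left out. EGLN1 stood at -0.0033169 with RLE scaling, -0.0080683 with upper quartile scaling, -0.0054397 in the fit of all 12 libraries and -0.0034782 with DESeq2, and ran from -0.02267 to 0.02906 without single libraries. Likewise CHORDC1 ran from -0.047061 to 0.11635, GAPDH from -0.038311 to 0.19668, ND4 from -0.12342 to 0.036274 and PLOD2 from -0.050326 to 0.041629. Of 296 called genes chosen by the naming rule, 254 kept their call under every alternative of settings and libraries and 277 under every left-out library. Of 46 called genes named after their values were seen, 33 kept it under every alternative. Most genes that lost their call without a library had been left out of these 46, so that count was partly set by the choice. In both sets a gene not tested under an alternative was counted as keeping its call. In simulated counts for this design, 67, 67 and 66 genes were changed 1.5-fold, 2-fold and 4-fold, of 15510 genes in the fit. Of these 61.2%, 85.1% and 95.5% were recovered, and 14 unchanged genes were called. In the real data 30.2% of genes tested were called, a far larger share than was changed here, so these rates need not hold for them.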

Other observations

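The core clock genes form a group that the lists above do not hold, and it was chosen after their values were seen. Of 15 tested genes 6 rose and 1 fell. NR1D1 (REV-ERB alpha), a repressor of the clock and of metabolic genes, stood at 4.76, 8.54 and 6.07 CPM in controls and 24.1, 30.4 and 26.1 CPM after lactate (2.11 ± 0.17 on the log2 scale, edgeR adjusted p = 2.12e-06). PER2 stood at 6.43, 5.69 and 6.13 CPM and 8.48, 13.3 and 13.8 CPM (0.99 ± 0.17, adjusted p = 0.000368), and every lactate library was above every control in both genes. PER1 (0.75), NR1D2 (0.79), NFIL3 (0.32) and RORA (0.29) rose and CRY1 fell (-0.31), while the activators ARNTL (0.14) and CLOCK (0.10) were not called. Without control 1 RORA and CRY1 lost their call, as did both without control 3 and CRY1 without lactate 1 or lactate 2. In the fit of all 12 libraries neither was called, nor was CRY1 by DESeq2. The time of day of harvest is not in the sources used here.

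Few genes of the major histocompatibility region had enough counts to be tested. Of 142 protein-coding genes that start on chromosome 6 between 29000000 and 33000000 (GRCh38.p14), 8 passed the filter on low counts (5.6%), against 564 of 858 (65.7%) on the rest of that chromosome and 12062 of 18301 (65.9%) on the others. TUBB and DDX39B, which most cells express strongly, had no counts in any of the 12 libraries of the series, and the ribosomal protein gene RPS18, just outside those bounds, had 0 counts in all 6 SW480 libraries and at most 1 in DLD1. By class of gene, 98 of 673 tested pseudogenes fell (14.6%) and 26 rose (3.86%; median -0.33 on the log2 scale), and of 1242 long noncoding RNAs 194 rose (15.6%) and 83 fell (6.68%), against 16% rising and 14.2% falling of all genes tested. Genes were also split into 4 equal classes by their mean CPM over the control and lactate groups. In the lowest class (median control level 1.36 CPM) 9.4% rose and 6.0% fell. In the highest class (median control level 106 CPM) 21.2% rose and 21.9% fell.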
